A study of Homo sapiens with 6 samples.

Results

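The genes described here serve the peroxisome, the organelle in which very long, branched and sterol-derived acyl chains are shortened and the first steps of ether lipid synthesis take place. The list holds 35 genes, fixed by name: the peroxins that build the organelle, its membrane transporters and its enzymes of lipid oxidation and ether lipid synthesis. All 35 were found among the 57905 Ensembl gene IDs of the deposited expression table. RNA was sequenced from Huh7 cells, a human hepatoma line. The tested cells had received an siRNA against ASGR1 (siASGR1, 3 libraries), and the others a scrambled control siRNA (siControl, 3 libraries), each for 72 h. ASGR1 is a subunit of the receptor by which hepatocytes take up desialylated glycoproteins. The labels mark the groups AS2 and WT and number the libraries 1 to 3. They do not say whether a number stands for its own culture, and every p-value below therefore reflects variation among libraries that may be no more than technical. They cover 1 cell line and 1 time.

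Peroxisomes hold no DNA, and every protein in them is imported. Soluble enzymes carry a short targeting signal that is read in the cytosol by the receptors PEX5 or PEX7, docked at the membrane by PEX13 and PEX14, and released inside, after which a ubiquitin ligase with PEX2 and PEX10 and an ATPase with PEX6, held at the membrane by PEX26, return the receptor to the cytosol. In liver the organelle shortens fatty acids that mitochondria handle poorly, makes bile acids from sterol precursors, and breaks down the hydrogen peroxide that its own oxidases release. Many of its genes are known targets of the fatty acid receptor PPARA.

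Values are FPKM, fragment counts scaled to exon length and to the library's total, so a level is relative to that total. They rest on 18479500 to 19256500 fragments in siASGR1 and 16326000 to 19332000 in siControl, rebuilt from the steps between low values. Library profiles on the log2(FPKM + 1) scale had a Pearson correlation of 0.988 within siASGR1, 0.985 to 0.988 within siControl and 0.941 to 0.945 between the groups, across genes, which are not independent replicates. ASGR1 itself was listed at 4.60, 4.82 and 4.71 FPKM in the siASGR1 libraries of the series table, but at 14.65, 15.81 and 14.04 FPKM in those libraries' own files, against 17.54, 17.56 and 16.90 FPKM in siControl in both sources. The extent of the knockdown therefore depends on which deposited value is read, and none of the 35 genes differed between the sources. All 8 hepatocyte and hepatoma markers were detected and called higher, with a summed level of 7470 to 7766 FPKM in siASGR1 and 3959 to 4073 FPKM in siControl. The 7 fibroblast markers summed to 0.64 to 0.88 FPKM in siASGR1 and 5.55 to 6.72 FPKM in siControl, with COL1A1 at 0.027 ± 0.0058 and 2.46 ± 0.37 FPKM (SD, n = 3 each). Leukocyte markers summed to 115.93 to 119.47 FPKM in siASGR1 and 69.62 to 76.3 FPKM in siControl, nearly all of it LYZ, with PTPRC near 0. Cholangiocyte markers summed to 41.29 to 42.85 FPKM in siASGR1 and 44.13 to 45.52 FPKM in siControl, but went opposite ways. KRT19 was called lower, at 7.91 ± 0.19 FPKM in siASGR1 against 14.1 ± 1.70 FPKM in siControl. SOX9 was called higher, at 31.3 ± 1.29 against 27.3 ± 1.18 FPKM, while EPCAM was not called and KRT7 was at 0. Endothelial markers summed to 0.16 to 0.21 FPKM in siASGR1 and 0.05 to 0.14 FPKM in siControl. The part of these marker differences in the results below was not tested. Fewer cells of a type and less RNA per cell cannot be told apart in bulk RNA.

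Two-sided limma tests on log2(FPKM + 1) were run on 13568 genes with at least 1 FPKM in at least 3 libraries, with Benjamini-Hochberg adjustment over all of them, and a gene was called at an adjusted p under 0.05. Of the 35 listed genes, 33 were tested. PEX7 passed the filter through its siControl values alone, and PEX11G and FAR1 did not pass. Of the 33, 15 were called higher and 9 lower in siASGR1, which is 45.5% and 27.3%, beside 20.9% and 40.4% of all tested genes. In either direction 24 were called, beside 61.3% of all tested genes. The median log2 fold change was 0.16 over the 33 genes and -0.13 over all tested genes. Groups did not overlap, on the higher side, for 16 of the 33 genes (23.5% of all tested genes) and, on the lower side, for 10 (43.8%). PEX7 had to differ to be tested at all, so the counts are also given without it: 15 of 32 were higher and 8 lower, and 9 did not overlap on the lower side. Leaving out all 666 genes that passed through 1 group alone, 21.1% of the other tested genes were higher and 38.4% lower. Of those 12902 genes, 5402 did not overlap on the lower side.

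The scaling between libraries moved these counts. Median-of-ratios scaling, which centres the typical gene near 0, raised the median of all tested genes by more than 0.1, to -0.0072. Under it 19 of the 33 genes were called higher and 7 lower, or 6 without PEX7 (57.6% and 21.2% of the 33), beside 29.9% and 28.9% of all tested genes, and the median of the 33 was 0.29. Log2 fold changes below are from values as deposited, and the rescaled value is given where it matters to the call. Fold changes called such are ratios of mean FPKM. The log2 fold changes from the fit have 1 FPKM added before the logarithm and understate the changes of low genes.

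**Figure D1:**
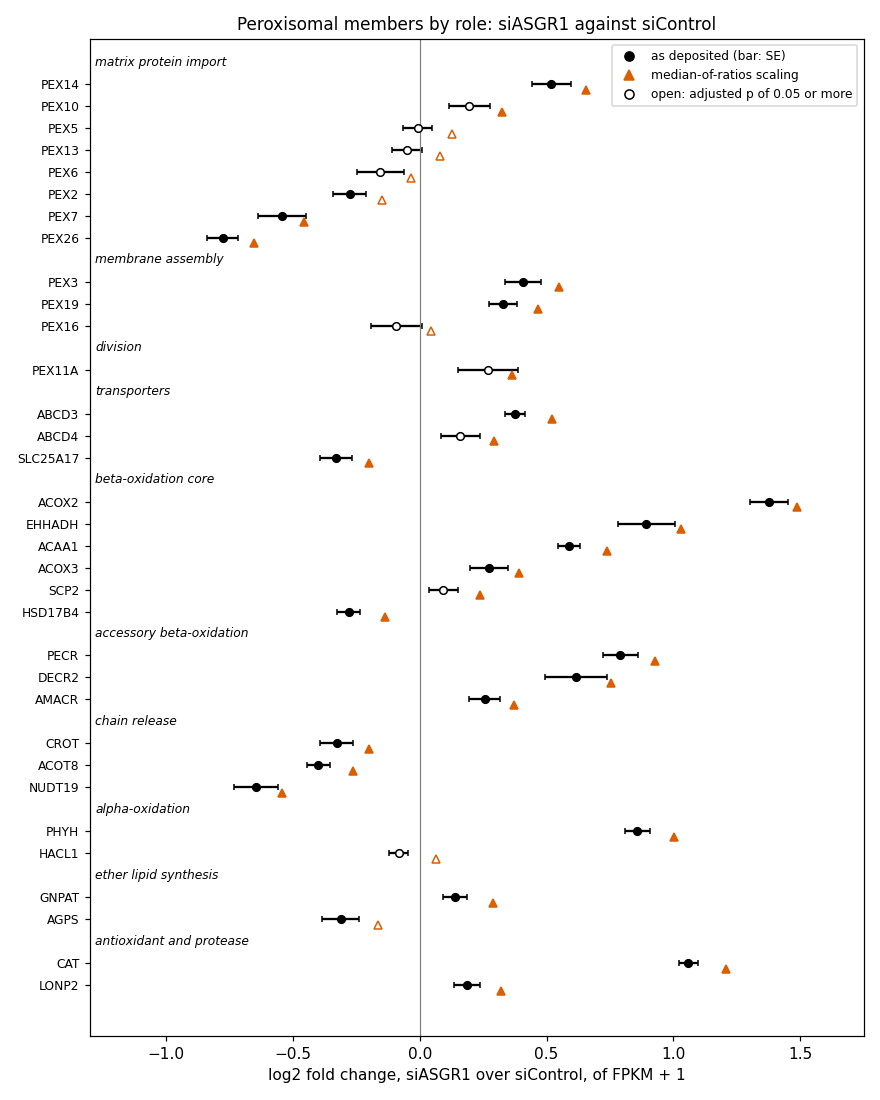
Log2 fold change of FPKM + 1, siASGR1 over siControl, for the 33 tested genes, ordered by role; black points are values as deposited with their SE, orange triangles the same after median-of-ratios scaling, and open symbols have an adjusted p of 0.05 or more. ACOX2 stands farthest to the right at 1.38 and PEX26 farthest to the left at -0.78 on this scale, which understates low genes such as PEX7, and rescaling shifts the genes to the right.

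Upstream sequence is shown for 4 members, of which CAT and ABCD3 were higher and PEX7 and NUDT19 lower in siASGR1, so that the promoters of genes that went opposite ways can be read side by side. Each line holds the 250 bases before the first RefSeq start of the gene in the table used (GRCh38.p14), written 5′ to 3′ on the gene's strand, which is the plus strand in all 4. Capitals mark the pentamer CCAAT, or its complement ATTGG for a match on the other strand, the box bound by the factor NF-Y.
CAT: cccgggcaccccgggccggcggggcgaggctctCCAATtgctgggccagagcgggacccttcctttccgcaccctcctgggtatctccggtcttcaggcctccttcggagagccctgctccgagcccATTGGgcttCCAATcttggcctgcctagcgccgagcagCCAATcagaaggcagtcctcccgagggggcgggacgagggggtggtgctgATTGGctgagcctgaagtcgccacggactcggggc
ABCD3: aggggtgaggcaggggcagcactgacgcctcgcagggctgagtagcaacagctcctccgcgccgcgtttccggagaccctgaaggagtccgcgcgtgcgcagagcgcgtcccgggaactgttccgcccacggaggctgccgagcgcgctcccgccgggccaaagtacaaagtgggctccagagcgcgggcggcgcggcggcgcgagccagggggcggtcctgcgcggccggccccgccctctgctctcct
PEX7: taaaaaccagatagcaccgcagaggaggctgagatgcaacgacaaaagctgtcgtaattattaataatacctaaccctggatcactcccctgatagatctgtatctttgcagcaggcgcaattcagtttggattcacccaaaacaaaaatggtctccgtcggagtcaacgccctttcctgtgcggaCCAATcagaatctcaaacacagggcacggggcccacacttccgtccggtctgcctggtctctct
NUDT19: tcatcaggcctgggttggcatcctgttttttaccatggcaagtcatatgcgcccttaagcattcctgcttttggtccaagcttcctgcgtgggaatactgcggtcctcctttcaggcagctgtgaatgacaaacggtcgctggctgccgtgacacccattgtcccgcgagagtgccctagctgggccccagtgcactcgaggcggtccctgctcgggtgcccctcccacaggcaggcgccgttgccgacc

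The CAT window (chr11:34438684-34438933) held 5 CCAAT matches, on both strands, between 217 and 31 bases before the start, and 0.319% of the 35116 promoters in the table held as many or more. The PEX7 window (chr6:136822342-136822591) held 1, from base 64 to base 60 before the start. The windows of ABCD3 (chr1:94418139-94418388) and NUDT19 (chr19:32691571-32691820) held 0. Of the 29 listed genes with an entry, 12 had a CCAAT match in at least 1 window, and by window the share was 35.1% of 37, beside 32.0% of all promoters. There was no entry for ACOX2, EHHADH, ACAA1, DECR2, PEX14 and PEX2, so the motif counts leave out these genes, ACOX2 with the largest change among them. An exact form of the PPARA response element, 2 direct copies of AGGTCA with any 1 base between them, was searched on both strands. It was in 0 of the 37 windows and in 6 of the 35116 promoters (0.0171%). So rare a string was unlikely to be met in 37 windows of any genes, and inexact copies were not searched. The 0 therefore does not show that PPARA elements are absent. A single AGGTCA was in 1 window, that of AGPS (2.70%, beside 12.1% of all promoters). These are matches of letters in 1 window per start and show no binding.

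Of the 8 genes of matrix protein import, PEX7 is given apart, and of the 7 others 1 rose, 2 fell and 4 were not called. Counts by role, here and below, cover few genes and stand beside 20.9% of all tested genes called higher and 40.4% called lower. PEX7, the receptor for enzymes with an N-terminal targeting signal (ENSG00000112357; GRCh38 chromosome 6, 136822564 to 136913937), was at 0.88, 0.97 and 0.94 FPKM in siASGR1 libraries, against 2.09, 1.66 and 1.71 FPKM in siControl libraries. All siASGR1 values lay below 1 FPKM and below all siControl values, and the level was 0.511 of that in siControl. Since the filter itself selected for this difference, the test given is that without a filter on low values, over 33948 genes (log2 fold change -0.54, limma adjusted p = 0.0102). The value rests on few reads, 30.2 to 33.2 rebuilt fragments in siASGR1 and 51.2 to 74.1 in siControl. PEX5, the receptor for enzymes with a C-terminal signal and the partner of PEX7, was at 7.94, 8.95 and 8.0 FPKM in siASGR1 libraries, against 8.41, 8.56 and 8.05 FPKM in siControl libraries. These groups overlapped (log2 fold change -0.0081, SE 0.06, adjusted p = 0.912).

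PEX26, the membrane anchor of the receptor-recycling ATPase, fell to 0.512 of its level in siControl, a ratio close to that of PEX7 (ENSG00000215193; chromosome 22, 18077920 to 18131138). It was at 3.04, 2.87 and 3.12 FPKM in siASGR1 libraries, against 5.99, 5.53 and 6.10 FPKM in siControl libraries, with no overlap (log2 fold change -0.78, SE 0.06, adjusted p = 4.49e-05; -0.65 after rescaling). PEX6, a subunit of that ATPase, was at 3.22, 4.16 and 3.50 FPKM in siASGR1 libraries, against 4.26, 4.42 and 3.75 FPKM in siControl libraries. The PEX6 groups overlapped (log2 fold change -0.16, SE 0.09, adjusted p = 0.183), and without siASGR1 replicate 2 the adjusted p = 0.0499.

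Of the docking proteins 1 rose, and of the ubiquitin ligase subunits 1 fell. PEX14, which docks the loaded receptor, rose (ENSG00000142655; chromosome 1, 10472288 to 10630758): it was at 10.35, 11.82 and 10.66 FPKM in siASGR1 libraries, against 8.07, 7.33 and 6.63 FPKM in siControl libraries (log2 fold change 0.52, SE 0.08, adjusted p = 0.000997). Its docking partner PEX13 was at 6.12, 5.80 and 6.35 FPKM in siASGR1 libraries, against 6.08, 6.23 and 6.72 FPKM in siControl libraries (log2 fold change -0.050, SE 0.06, adjusted p = 0.476). The PEX13 groups overlapped, whereas those of PEX14 did not. The ligase subunit PEX2 was at 4.97, 4.95 and 4.60 FPKM in siASGR1 libraries, against 6.27, 5.59 and 6.38 FPKM in siControl libraries (log2 fold change -0.28, SE 0.06, adjusted p = 0.00735). PEX2 values did not overlap, but the call was lost after rescaling (log2 fold change -0.15, adjusted p = 0.0797). The ligase subunit PEX10 was at 5.63, 6.72 and 5.26 FPKM in siASGR1 libraries, against 5.01, 4.86 and 5.05 FPKM in siControl libraries (log2 fold change 0.20, SE 0.08, adjusted p = 0.0736). It passed after rescaling (0.33, adjusted p = 0.0145), and leaving out siASGR1 replicate 3 gave an adjusted p = 0.0359. In GENCODE v29, 39.1% of the exon bases of PEX10 also lie in exons of RER1 on the opposite strand, and since the strand setting of the counting is not given in the sources used here, its reads cannot be told from those of RER1.

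Of the 3 genes of membrane assembly, 2 rose. PEX3, the membrane receptor that accepts newly made peroxisomal membrane proteins, was at 14.48, 14.42 and 12.46 FPKM in siASGR1 libraries, against 10.82, 9.72 and 9.84 FPKM in siControl libraries (log2 fold change 0.41, SE 0.07, adjusted p = 0.00196). PEX19, the cytosolic chaperone that delivers those proteins to PEX3, was at 12.40, 10.99 and 11.23 FPKM in siASGR1 libraries, against 9.18, 9.04 and 8.72 FPKM in siControl libraries (log2 fold change 0.33, SE 0.06, adjusted p = 0.0018). For both genes every siASGR1 library lay above every siControl library. PEX16, which brings PEX3 to the membrane, ranged from 7.58 to 8.73 FPKM in siASGR1 and from 7.26 to 9.51 FPKM in siControl and was not called (adjusted p = 0.452).

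The division factors of the PEX11 family were low. PEX11A, which elongates the membrane before fission, was at 1.9, 2.06 and 2.16 FPKM in siASGR1 libraries, against 1.45, 1.95 and 1.22 FPKM in siControl libraries. The groups overlapped through siControl replicate 2 (log2 fold change 0.27, SE 0.12, adjusted p = 0.083). PEX11A passed without that library (log2 fold change 0.38, adjusted p = 0.0202) and after rescaling (adjusted p = 0.0307). PEX11G was not tested: it was at 0.15, 0.18 and 0.04 FPKM in siASGR1 libraries and at 0.35, 0.37 and 0.42 FPKM in siControl libraries, which is 1.13 to 4.88 and 9.12 to 10.1 rebuilt fragments.

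**Figure D2:**
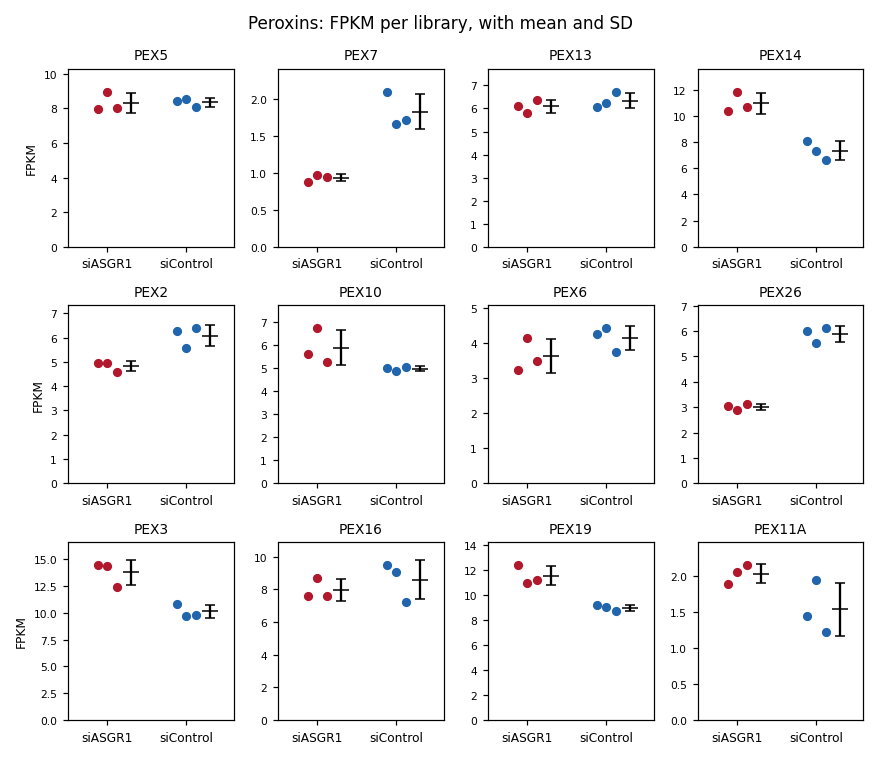
FPKM of the 12 tested peroxins in each library, siASGR1 in red and siControl in blue, with the mean and SD of the 3 libraries beside the points. PEX14, PEX3 and PEX19 lie higher in siASGR1 without overlap, PEX7 and PEX26 lie lower, and PEX5 and PEX13 overlap.

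Of the 3 transporters, 1 rose and 1 fell. ABCD3, the ABC transporter that takes branched-chain, dicarboxylic and bile acid precursor CoA esters into the organelle (ENSG00000117528; chromosome 1, 94418455 to 94518666), was at 23.36, 22.54 and 22.41 FPKM in siASGR1 libraries, against 16.80, 17.68 and 17.48 FPKM in siControl libraries. The values did not overlap and the level was 1.31-fold that of siControl (log2 fold change 0.38, SE 0.04, adjusted p = 0.000201). SLC25A17, the membrane carrier of CoA and nucleotide cofactors, was at 5.92, 5.48 and 5.09 FPKM in siASGR1 libraries, against 6.83, 7.41 and 7.26 FPKM in siControl libraries. It fell without overlap (log2 fold change -0.33, SE 0.06, adjusted p = 0.00319; -0.20, adjusted p = 0.0303, after rescaling). ABCD4, a relative of ABCD3 that works in lysosomal cobalamin export, was at 6.21, 6.94 and 6.05 FPKM in siASGR1 libraries, against 5.55, 6.16 and 5.16 FPKM in siControl libraries. It was not called (log2 fold change 0.16, adjusted p = 0.104) but passed after rescaling (0.29, adjusted p = 0.0166) and without siControl replicate 2 (0.22, adjusted p = 0.0471).

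The core of beta-oxidation, the cycle that removes acetyl units from the chain, had 4 genes higher, 1 lower and 1 not called. ACOX2, the oxidase that opens the cycle for branched chains and bile acid precursors, had the largest log2 fold change of the 33 genes (ENSG00000168306; chromosome 3, 58505136 to 58537319). It was at 5.37, 5.89 and 5.58 FPKM in siASGR1 libraries, against 1.5, 1.74 and 1.40 FPKM in siControl libraries, and 1.94% of all tested genes had a larger change in either direction. The log2 fold change was 1.38 (SE 0.07, adjusted p = 1.06e-05). ACOX3, an oxidase of branched chains, was at 3.50, 4.25 and 3.90 FPKM in siASGR1 libraries, against 2.85, 3.16 and 3.09 FPKM in siControl libraries (log2 fold change 0.27, SE 0.08, adjusted p = 0.0165). Its groups did not overlap, but the call was lost without siASGR1 replicate 2 (adjusted p = 0.0506) or siControl replicate 1 (adjusted p = 0.0559).

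The 2 bifunctional enzymes, each of which carries out the hydration and dehydrogenation steps, went opposite ways. EHHADH, the L-bifunctional enzyme (ENSG00000113790; chromosome 3, 185190624 to 185281990), was at 15.88, 13.19 and 14.57 FPKM in siASGR1 libraries, against 6.48, 6.89 and 8.86 FPKM in siControl libraries. It rose 1.96-fold without overlap (log2 fold change 0.89, SE 0.11, adjusted p = 0.000426). HSD17B4, the D-bifunctional enzyme, which also serves branched chains and bile acid precursors (ENSG00000133835; chromosome 5, 119452443 to 119637199), was at 15.63, 14.35 and 15.03 FPKM in siASGR1 libraries, against 18.39, 18.06 and 18.80 FPKM in siControl libraries. It fell, also without overlap (log2 fold change -0.28, SE 0.05, adjusted p = 0.00142), and by less after rescaling (-0.14, adjusted p = 0.0279).

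The thiolases close the cycle. ACAA1, the thiolase of straight chains, was at 32.75, 35.03 and 33.75 FPKM in siASGR1 libraries, against 22.89, 21.80 and 21.74 FPKM in siControl libraries, and rose (log2 fold change 0.59, SE 0.04, adjusted p = 3.55e-05). SCP2, which encodes the thiolase of branched chains and a sterol carrier protein, was at 18.54, 16.58 and 17.97 FPKM in siASGR1 libraries, against 16.08, 16.10 and 17.38 FPKM in siControl libraries. The SCP2 groups overlapped (log2 fold change 0.093, adjusted p = 0.186), although the gene passed after rescaling (0.24, adjusted p = 0.00595). Of the exon bases, 19.7% of those of ACAA1 are shared with DLEC1 on the opposite strand and 20.7% of those of SCP2 with pseudogenes.

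All 3 accessory genes of beta-oxidation rose. PECR, a reductase of enoyl-CoA chains, was at 10.57, 11.51 and 12.08 FPKM in siASGR1 libraries, against 6.45, 6.40 and 5.62 FPKM in siControl libraries (log2 fold change 0.79, SE 0.07, adjusted p = 7.93e-05). DECR2, which reduces the double bonds of unsaturated chains, was at 14.25, 14.56 and 13.20 FPKM in siASGR1 libraries, against 8.94, 10.63 and 7.09 FPKM in siControl libraries (log2 fold change 0.62, SE 0.12, adjusted p = 0.0039). AMACR, the racemase that turns branched chains and bile acid precursors into the form the oxidases accept, was at 3.35, 3.15 and 3.43 FPKM in siASGR1 libraries, against 2.61, 2.58 and 2.63 FPKM in siControl libraries (log2 fold change 0.26, SE 0.06, adjusted p = 0.00813). None of the 3 overlapped between groups, and DECR2 had the widest spread, in siControl. AMACR shares 55.0% of its exon bases with the readthrough gene C1QTNF3-AMACR on the same strand, so its value is uncertain.

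All 3 genes that release shortened chains or degrade CoA fell, and all 3 were also called lower after rescaling. CROT, which passes shortened chains to carnitine for transfer to mitochondria, was at 4.64, 4.15 and 4.20 FPKM in siASGR1 libraries, against 5.34, 5.80 and 5.93 FPKM in siControl libraries (log2 fold change -0.33, SE 0.06, adjusted p = 0.0033). ACOT8, a thioesterase that frees chains from CoA, was at 8.56, 8.07 and 8.42 FPKM in siASGR1 libraries, against 11.47, 11.50 and 11.05 FPKM in siControl libraries (log2 fold change -0.40, SE 0.04, adjusted p = 0.00024). NUDT19, a hydrolase of CoA known from mouse, was at 1.71, 1.31 and 1.59 FPKM in siASGR1 libraries, against 2.79, 2.97 and 3.14 FPKM in siControl libraries (log2 fold change -0.65, SE 0.09, adjusted p = 0.000555). No siASGR1 library reached the lowest siControl library in any of these genes. ACOT8 shares 35.3% of its exon bases with SNX21 on the opposite strand.

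**Figure D3:**
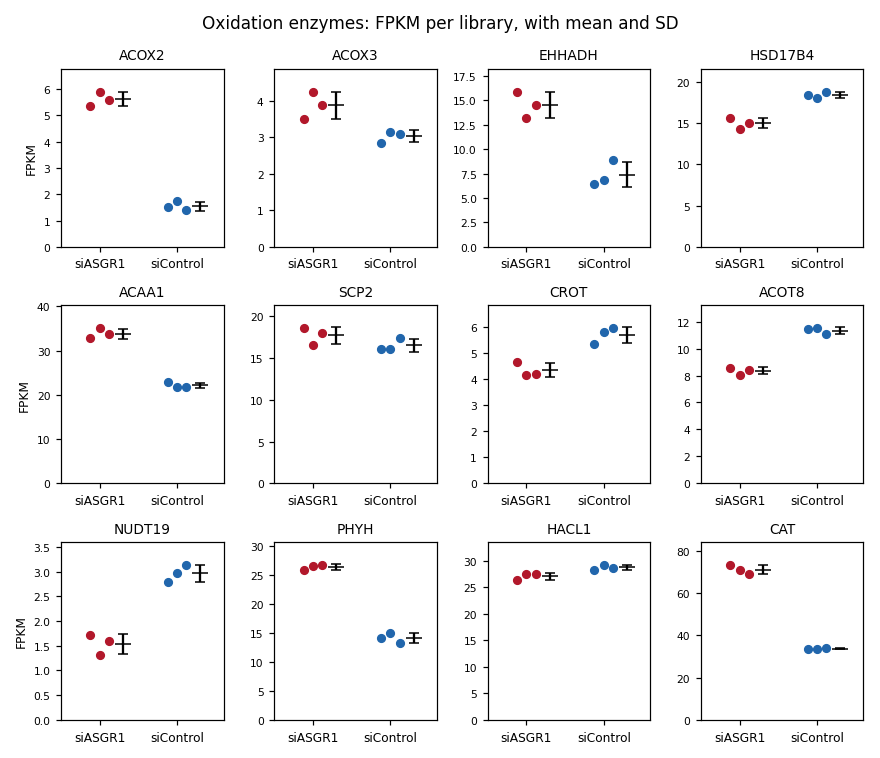
FPKM of 12 oxidation genes in each library, siASGR1 in red and siControl in blue, with the mean and SD of the 3 libraries beside the points; axes start at 0. ACOX2, EHHADH, ACAA1, PHYH and CAT lie higher in siASGR1, HSD17B4, CROT, ACOT8 and NUDT19 lower, all without overlap.

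In alpha-oxidation, which removes 1 carbon from methyl-branched chains such as phytanic acid, the first enzyme rose. PHYH, the phytanoyl-CoA hydroxylase (ENSG00000107537; chromosome 10, 13277796 to 13302412), was at 25.85, 26.49 and 26.76 FPKM in siASGR1 libraries, against 14.12, 14.94 and 13.26 FPKM in siControl libraries. The level was 1.87-fold that of siControl (log2 fold change 0.86, SE 0.05, adjusted p = 1.5e-05). HACL1, the lyase of the next step, was at 26.30, 27.46 and 27.42 FPKM in siASGR1 libraries, against 28.27, 29.21 and 28.71 FPKM in siControl libraries. Its groups did not overlap, but it was not called (log2 fold change -0.084, adjusted p = 0.0921), and its sign turned after rescaling (0.064, adjusted p = 0.202).

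Ether lipid synthesis showed small differences. GNPAT, which starts the pathway, was at 44.22, 43.30 and 43.93 FPKM in siASGR1 libraries, against 37.22, 41.24 and 40.63 FPKM in siControl libraries (log2 fold change 0.14, SE 0.05, adjusted p = 0.0342). This call was lost without siASGR1 replicate 1, 2 or 3 (adjusted p = 0.0916, 0.0547 and 0.0876) and without siControl replicate 1 (adjusted p = 0.11). AGPS, which forms the ether bond, was at 24.95, 22.71 and 25.21 FPKM in siASGR1 libraries, against 28.95, 28.62 and 33.75 FPKM in siControl libraries. It fell without overlap (log2 fold change -0.31, SE 0.07, adjusted p = 0.00815), a call that was lost after rescaling (-0.16, adjusted p = 0.075). FAR1, which supplies the fatty alcohol, was listed at 0.06, 0.04 and 0.03 FPKM in siASGR1 libraries and at 0.01, 0.06 and 0.07 FPKM in siControl libraries, or 4.33 to 8.42 and 1.45 to 8.57 rebuilt fragments. FAR1 is known as a widely expressed gene, and the counting and annotation behind these values are not given, so they are not read as its expression level and no comparison was made.

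CAT, catalase, which breaks down hydrogen peroxide, was the second largest increase of the list on the log2 scale and the gene with the smallest adjusted p (ENSG00000121691; chromosome 11, 34438925 to 34472062). It was at 73.29, 70.66 and 69.15 FPKM in siASGR1 libraries, against 33.29, 33.53 and 33.91 FPKM in siControl libraries. The groups lay far apart relative to their spread, 71.0 ± 2.10 and 33.6 ± 0.31 FPKM (SD, n = 3 each), a 2.12-fold difference (log2 fold change 1.06, SE 0.04, adjusted p = 2.78e-06). It is the member whose promoter, printed above, holds 5 CCAAT matches. LONP2, a protease that clears damaged matrix proteins, was at 7.55, 7.45 and 8.18 FPKM in siASGR1 libraries, against 6.58, 6.69 and 6.74 FPKM in siControl libraries (log2 fold change 0.19, SE 0.05, adjusted p = 0.0162). The LONP2 call was lost without siASGR1 replicate 3 (adjusted p = 0.0637) or siControl replicate 1 (adjusted p = 0.0526). Exon bases shared with another gene made up 18.0% for LONP2 with SIAH1, 16.3% for PEX19 with AL139011.2, 15.4% for HACL1 with BTD and 14.1% for DECR2 with NME4.

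Because a change of scaling moves all genes of a library together, partner genes were also compared as the FPKM ratio within each library, which scaling cannot change. Of 12 pairs, 9 had ratios that did not overlap between groups, among them PEX11A to PEX11G, which rests on few fragments. PEX5 to PEX7 is also among the 9. PEX7 passed the filter through its siControl values alone and had 30.2 to 33.2 rebuilt fragments in siASGR1 libraries. Ratios of other gene pairs were not computed, so this count has no background of its own. Among single tested genes, 23.5% did not overlap on the higher side and 43.8% on the lower side, so a lack of overlap was common. With 3 libraries against 3, the smallest p that the two-sided exact permutation test allows is 0.10, which these 9 pairs had, and after adjustment over the 12 pairs it was 0.133, so no pair could pass. The ratio of EHHADH to HSD17B4 was 1.016, 0.919 and 0.969 in siASGR1 libraries, against 0.352, 0.382 and 0.471 in siControl libraries. In FPKM the L-bifunctional enzyme was thus near the D-bifunctional one in siASGR1 and below it in siControl, a 2.43-fold difference in the ratio. That scale divides by exon length, and all annotated exons together span 4700 bases for EHHADH and 10664 for HSD17B4. Rebuilt fragments in siASGR1 libraries were 1146 to 1396 for EHHADH and 2828 to 3118 for HSD17B4. The FPKM ratio is therefore not read as equal transcript numbers, and only its difference between groups is used. The ratio of ACOX2 to ACOX3 was 1.53, 1.39 and 1.43 in siASGR1 libraries, against 0.526, 0.551 and 0.453 in siControl libraries, so the order of these oxidases by level was opposite in the groups.

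Among the import genes, the ratio of PEX5 to PEX7 was 8.92 ± 0.37 in siASGR1 and 4.63 ± 0.57 in siControl, with the limit on PEX7 given above. The ratio of PEX6 to PEX26 was 1.21 ± 0.21 in siASGR1 and 0.708 ± 0.092 in siControl (SD, n = 3 each). PHYH to HACL1 was 0.974 ± 0.0092 in siASGR1 and 0.491 ± 0.026 in siControl. AGPS to GNPAT was lower, 0.554 ± 0.026 in siASGR1 against 0.767 ± 0.069 in siControl. Ratios overlapped for PEX19 to PEX3, for ABCD4 to ABCD3 and for ACOT8 to CROT. That of PEX11A to PEX11G rests on a handful of fragments of PEX11G and is not read further.

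**Figure D4:**
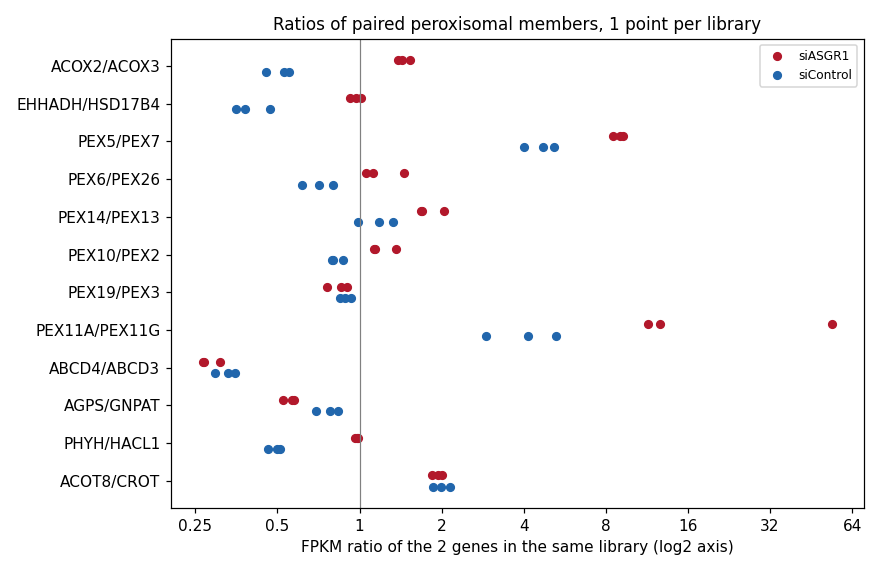
FPKM ratio of 2 partner genes within the same library, on a log2 axis, with 1 point per library, siASGR1 in red above siControl in blue. The grey line marks equal FPKM, which depends on the exon length of each gene. EHHADH/HSD17B4 and PHYH/HACL1 lie near 1 in siASGR1 and at 0.352 to 0.511 in siControl, while ACOT8/CROT overlaps.

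Other genes of the organelle and of neighbouring pathways were counted in lists set by name. Of 33 tested genes for other peroxisomal proteins, 14 rose and 7 fell (42.4% and 21.2%), with a median log2 fold change of 0.047. After rescaling 17 rose and 3 fell (51.5% and 9.09%), with a median of 0.20. MPV17L, a membrane protein, rose 3.89-fold, to 8.74 ± 0.42 FPKM in siASGR1 against 2.25 ± 0.31 FPKM in siControl, and HSDL2, a dehydrogenase-like protein, rose 2.12-fold, to 42.0 ± 3.14 against 19.8 ± 1.73 FPKM. NUDT12, a nucleotide hydrolase, fell to 5.01 ± 0.14 FPKM in siASGR1 against 7.95 ± 0.51 FPKM in siControl, and MVK, mevalonate kinase, to 12.1 ± 0.50 against 16.8 ± 0.48 FPKM. Of 15 tested genes of mitochondrial beta-oxidation, 11 rose and 2 fell (73.3% and 13.3%; median 0.38), and 12 and 2 after rescaling (median 0.53). DECR1, the mitochondrial dienoyl-CoA reductase, rose 2.19-fold, beside 1.58-fold for the peroxisomal DECR2, and ETFDH, which passes electrons from the mitochondrial cycle to the respiratory chain, fell to 4.82 ± 0.11 FPKM in siASGR1 against 8.40 ± 0.55 FPKM in siControl. These shares and medians describe the lists, and no test compared one list with another. Beside them, 20.9% of all tested genes were higher and 40.4% lower, or 29.9% and 28.9% after rescaling.

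**Figure D5:**
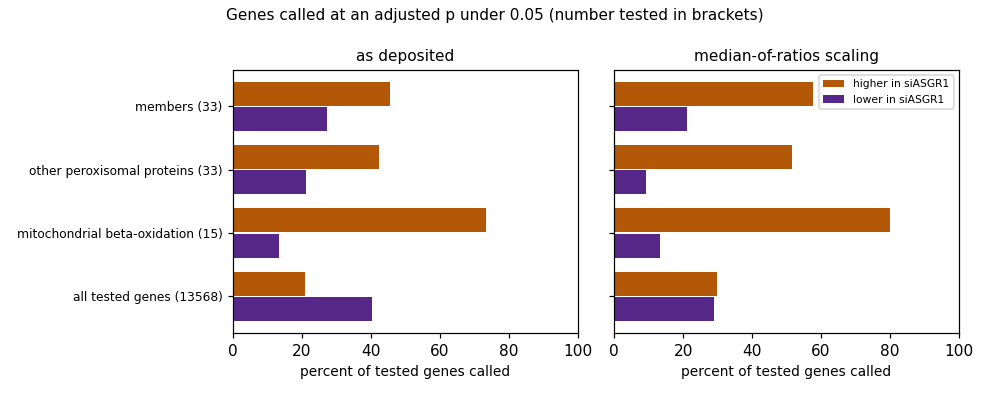
Percent of tested genes called higher or lower in siASGR1 at an adjusted p under 0.05, for values as deposited (left) and after median-of-ratios scaling (right), in the listed peroxisomal genes, other peroxisomal proteins, mitochondrial beta-oxidation and all tested genes; number tested in brackets. Of the listed genes 45.5% were higher and 27.3% lower as deposited, beside 20.9% and 40.4% of all tested genes.

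PPARA, the receptor known to drive many peroxisomal genes, fell with its relative PPARG. PPARA was at 9.76 ± 0.30 FPKM in siASGR1 against 14.8 ± 0.22 FPKM in siControl (log2 fold change -0.56, adjusted p = 4.37e-05), and PPARG at 20.7 ± 0.93 against 27.7 ± 1.00 FPKM. Of 9 tested genes of PPAR receptors, partners and cofactors, 2 rose and 3 fell (22.2% and 33.3%), close to the 20.9% and 40.4% of all tested genes, and PPARGC1A was listed at 0 in all libraries. Of 11 PPARA targets outside the peroxisome, 6 were tested, and 4 rose and 0 fell (66.7% and 0%, beside the same 20.9% and 40.4%). After rescaling 6 rose and 0 fell, beside 29.9% and 28.9% of all tested genes. PLIN2, a lipid droplet coat protein, was among those that rose (54.0 ± 0.39 FPKM in siASGR1 and 24.7 ± 0.65 FPKM in siControl).

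Of 7 genes of later ether lipid steps, 6 were tested, of which 1 rose and 2 fell (16.7% and 33.3%, against 20.9% and 40.4% of all tested genes): SELENOI, an ethanolamine phosphotransferase, was at 16.6 ± 1.03 FPKM in siASGR1 and 30.4 ± 1.83 FPKM in siControl, and PEDS1, the desaturase that makes plasmalogens, at 4.97 ± 0.12 and 8.14 ± 0.35 FPKM. Of 7 genes of bile acid synthesis upstream of ACOX2, 2 were tested: CYP27A1, the sterol side-chain hydroxylase, rose 1.73-fold, and HSD3B7, a sterol dehydrogenase, fell to 2.71 ± 0.37 FPKM against 3.99 ± 0.66 FPKM in siControl, a call that was lost after rescaling. Of 8 tested genes of fission and tethering, 2 rose and 4 fell (25% and 50%), near the 20.9% and 40.4% of all tested genes. After rescaling 2 rose and 1 fell (25% and 12.5%, beside 29.9% and 28.9% of all tested genes). FIS1, a fission adaptor shared with mitochondria, rose 1.39-fold, and VAPB, which tethers peroxisomes to the endoplasmic reticulum, fell to 6.00 ± 0.39 FPKM against 8.34 ± 0.11 FPKM in siControl. Of 9 genes of peroxisome turnover by autophagy, 2 rose and 2 fell (22.2% each; 3 and 1 after rescaling, beside 29.9% and 28.9% of all tested genes), among them the adaptors NBR1, which rose 1.18-fold, and SQSTM1, which fell to 29.7 ± 0.48 FPKM against 42.0 ± 1.33 FPKM in siControl.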

How the data were processed

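FPKM per Ensembl gene ID were deposited by the authors, rounded to 2 decimals, in 1 series table (named as raw counts, though its values are FPKM) and 1 file per library. Per the submitters' processing notes the tools named are HISAT2 2.0.1, bcl2fastq 2.17.1.14 and cutadapt 1.9.1, with the build hg19. What counted the fragments, by which annotation and strand setting, is not given in the sources used here. All tests read the series table. Symbols matched 39538 of 57905 IDs (68.3%). Coordinates, exon lengths and overlaps are from GENCODE v29 on GRCh38, and promoters from RefSeq (GRCh38.p14).

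limma 3.58.1 (R 4.3.3) was fitted to log2(FPKM + 1) with the group as its only term and a variance prior that follows expression. The replicate numbers were not used as a block. Depth was rebuilt by finding the total at which values of up to 20 reads in short genes came out whole within rounding (95.4% to 95.8%, against 6.77% to 8.04% by chance). It was fitted on those same values, so it is no independent check. Simulated reads for 12973 genes had 30.6% of genes changed 1.2-fold called, 64.6% of those changed 1.5-fold, 93.9% for 2-fold and 100% for 4-fold, with 9 false calls. The simulation changed 50 genes per fold, up or down at random, with a fixed spread between libraries not estimated from these data. Since 61.3% of tested genes were called in the data, these rates do not give the recovery or the false calls of the comparison itself.

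The members, roles, pairs and lists were chosen with earlier results of these data known. Every member is named; from each other list up to 3 called genes per direction with the largest changes. A few genes within that rule are left unreported. Alternatives covered scaling, pseudocount, filters, variance prior, limma-voom with the rebuilt reads, blocking by replicate number and leaving out each library. Permutation tests used scipy 1.17.1, tables pandas 2.3.3 and plots matplotlib 3.10.9, under Python 3.11.15.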

Additional observations from a re-analysis of the deposited data

How the results depend on the processing

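Of the 24 called members, 19 (18 without PEX7, which the filter selected for its difference) kept their call and direction under all those of the 15 alternatives in which they were tested. ACOX3, AGPS, GNPAT, LONP2 and PEX2 lost it under at least 1, and none of the 24 changed sign. Of the members not called, 5 (ABCD4, PEX10, PEX11A, PEX6 and SCP2) gained a call under at least 1. The median log2 fold change of the members was 0.29 with median-of-ratios, 0.23 with upper-quartile and 0.31 with quantile scaling, beside 0.16 as deposited. Requiring FPKM of at least 5 left 7829 genes to test and 3382 called lower among all genes, against 5480. Leaving out each library in turn gave 12 to 17 members called higher and 8 to 10 lower, 2411 to 2741 genes higher and 4433 to 5095 lower among all genes, and a member median of 0.14 to 0.18. Signs turned for uncalled members alone. PEX5 was at 0.13, 0.061 and 0.11 with median-of-ratios, upper-quartile and quantile scaling, and between -0.058 and 0.019 with each library left out, above 0 without siASGR1 replicate 1 or 3 or siControl replicate 2. PEX13 was at 0.081, 0.016 and 0.090 with the same scalings, PEX16 at 0.044 with median-of-ratios and 0.023 with quantile, HACL1 at 0.064 with median-of-ratios and PEX6 at 0.025 with quantile scaling. The replicate block left 15 members higher and 9 lower, with 2761 and 5303 among all genes. The block ended the call of GNPAT (adjusted p = 0.0601) and gave one for ABCD4 (adjusted p = 0.0495). Same-numbered libraries did not deviate together (correlations of -0.019, 0.0021 and 0.012), so the numbers were not taken to pair them. The causes of these changes were not tested. PEX11G and FAR1 had at most 10.1 rebuilt fragments in a library, too few for a comparison; why FAR1 is so low was not tested.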
